A study of Mus musculus with 4 samples.

Results

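Polyamine synthesis and its control were followed through 8 genes chosen by symbol, namely Odc1, Amd1, Srm, Sms, Sat1, Oaz1, Oaz2 and Azin1, out of the 54532 genes in the count tables. All 8 passed a filter of a mean of at least 1 CPM, read counts scaled by library size, over the libraries, as did 11640 genes in all. The cells were RAW 264.7, a mouse macrophage line that arose from a tumour induced by Abelson leukaemia virus. They were wild type or Hnrnpul1-/-, lacking Hnrnpul1, a relative of the RNA-binding protein hnRNP U, and each genotype was either left untreated or exposed to lipopolysaccharide (LPS), which bacteria carry in their outer membrane and cells sense through TLR4; the dose was 100 ng/ml and the exposure 10 h. These 4 groups had 1 library each, made from polyadenylated RNA. The way the knockout line was made and its number of clones are not given in the sources used here.

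Putrescine, spermidine and spermine are small cations that bind nucleic acids and are needed for growth and translation. Odc1 (ornithine decarboxylase) makes putrescine from ornithine, Amd1 (adenosylmethionine decarboxylase) supplies the aminopropyl donor, Srm (spermidine synthase) and Sms (spermine synthase) add the aminopropyl groups, and Sat1 acetylates spermidine and spermine for breakdown or export. Antizymes, encoded by Oaz1 and Oaz2, bind ornithine decarboxylase, send it to the proteasome without ubiquitin and restrain polyamine uptake, while antizyme inhibitor, encoded by Azin1, binds the antizymes. In macrophages, ornithine also arises from arginine through arginases, which compete with nitric oxide synthase for the same substrate.

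The total counts of the libraries ranged from 17045432 to 17909549. Levels below are CPM after TMM scaling, which sets libraries to a common level over most genes, and differences are log2 ratios between a pair of libraries with a 95% counting interval. With 1 library a group these intervals speak of counting error alone, PCR copies of 1 molecule count as separate reads where molecules carry no identifiers, and no ratio has a replicate check. A gene was called higher or lower at a ratio of at least 2-fold with an interval that left out no change. In bulk RNA, fewer expressing cells and less RNA per cell cannot be told apart. Hnrnpul1 had 5086 and 3114 counts in wild type, untreated and with LPS, and 447 and 350 in the knockout. All 8 macrophage markers listed had counts, with summed levels of 3695 and 3163 CPM in untreated wild type and knockout and 8492 and 5658 CPM with LPS. Between genotypes with LPS most of these markers were lower in the knockout. Lyz2 was at 3334 CPM in wild type and 1245 in the knockout, Cd14 at 3011 and 2641 and Csf1r at 803 and 499. Fcgr1 (474 and 361), Spi1 (435 and 389) and Cd68 (183 and 152) were lower too. Adgre1, at 128 and 217, and Itgam, at 125 and 154, went the other way. The T cell and epithelial markers Cd3e, Cd3g, Cd8a, Epcam, Krt8 and Krt18 were at 0 counts in all 4 libraries, while 1 of 3 markers had counts for B cells (Cd79a, at most 5), for fibroblasts (Col1a1, at most 3) and for neutrophils (S100a8, at most 8). The part of the macrophage marker levels in the differences below was not tested.

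With LPS, Odc1 and Sat1 were higher in both genotypes; their enzymes open the pathway and acetylate its products. The other 6 genes stayed under 2-fold in both genotypes. The count of 2 of 8 called higher stood beside a background of 11.2% of all 11640 genes called higher in wild type and 11.6% in the knockout, and the count of 0 called lower beside 10.1% and 12% called lower. Without TMM scaling, on total counts, the share of higher genes among all called genes was 33.9% in place of 52.6% in wild type and 31.4% in place of 49.0% in the knockout. The median log2 ratio of the 8 genes was 0.13 in wild type and 0.26 in the knockout, beside all-gene medians of -0.00 and -0.02. That Odc1 is an abundant LPS-raised gene was known when the genes were chosen. Its LPS ratios and level, and its part in the count and median of the 8 genes, are therefore given as a description. Of the 7 genes other than Odc1, Sat1 alone was called higher, in both genotypes.

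**Figure D1:**
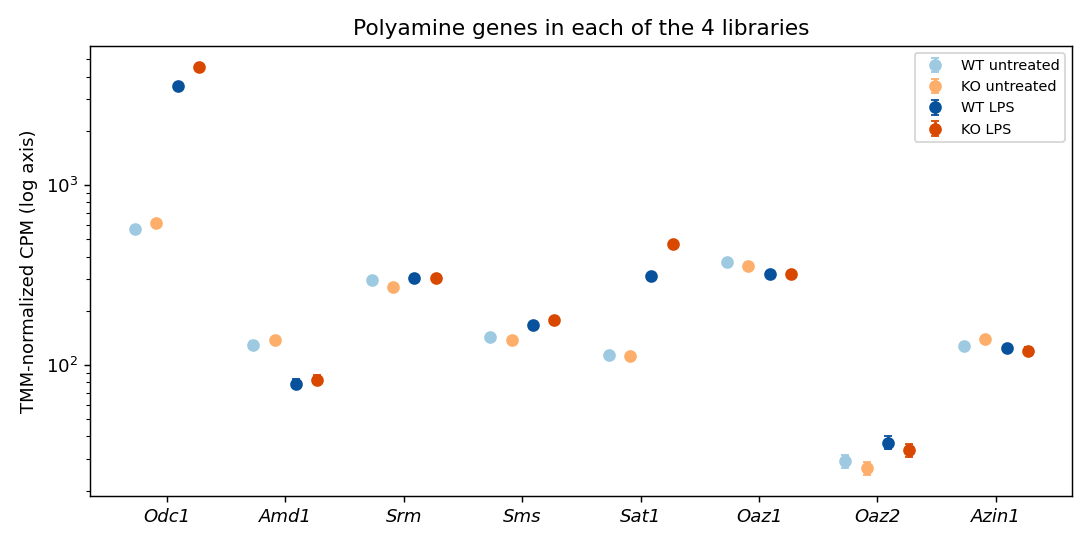
Level of each polyamine gene in the 4 libraries, as TMM-normalized CPM on a log axis; points are single libraries (WT, wild type; KO, Hnrnpul1-/-) and bars are exact Poisson 95% intervals. Odc1 goes from 572 and 613 CPM untreated to 3535 and 4527 CPM with LPS, and Sat1 from 113 and 111 to 311 and 470 CPM, while Oaz2 lies lowest in every library at 26.6 to 36.9 CPM.

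Odc1, the rate-limiting enzyme of the pathway (ENSMUSG00000011179, chromosome 12, 17544794 to 17551505, plus strand, GRCm38), had 10866 counts in wild type and 11874 in the knockout without LPS, and 54273 and 72891 with it. Both LPS libraries lay far above both untreated ones, and the LPS-treated knockout was the highest. The log2 ratio with LPS was 2.63 (2.60 to 2.66) in wild type, a 6.18-fold higher level, and 2.88 (2.86 to 2.91) in the knockout, a 7.38-fold higher level. Odc1 transcripts took 0.0633% of all counts in untreated wild type, with an exact binomial 95% interval of 0.0621 to 0.0645%, and 0.318% with LPS. In the knockout these shares were 0.0684% and 0.407%.

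That Odc1 is abundant among LPS-raised genes was known when it was chosen, so its ranks by amount are a description. Odc1 ranked higher among these genes by amount than by fold. By CPM in the LPS library it held rank 8 among the 1309 genes called higher in wild type and rank 5 among the 1345 called higher in the knockout. By the size of the LPS ratio it held ranks 402 and 346. Its gain of 2963 CPM made up 1.58% of the summed gain of all genes called higher in wild type, and the gain of 3914 CPM in the knockout made up 2.0%. On the scale of CPM per kilobase of the deposited gene length, its rank among all genes went from 246 to 36 in wild type and from 223 to 21 in the knockout.

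The upstream sequence of Odc1 and that of Sat1 are shown because these are the 2 genes called higher with LPS. They are the bases before the deposited gene start that fall within the RefSeq promoter windows of GRCm38.p6, read 5′ to 3′ on the gene's strand, with capitals marking GC boxes (GGGCGG on either strand). RefSeq windows were matched for 6 of the 8 genes, not for Srm and Azin1.
Odc1 chr12:17544623-17544793 plus strand: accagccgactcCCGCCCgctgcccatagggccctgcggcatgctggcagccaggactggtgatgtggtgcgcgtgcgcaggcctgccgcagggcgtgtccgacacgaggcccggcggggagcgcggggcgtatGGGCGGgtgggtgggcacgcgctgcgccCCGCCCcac
Sat1 chrX:155216450-155216699 minus strand: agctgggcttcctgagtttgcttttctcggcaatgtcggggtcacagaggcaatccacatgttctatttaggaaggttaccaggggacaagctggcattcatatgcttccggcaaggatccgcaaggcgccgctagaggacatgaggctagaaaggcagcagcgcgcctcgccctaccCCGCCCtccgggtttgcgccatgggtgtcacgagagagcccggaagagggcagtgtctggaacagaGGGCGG

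Over its whole 300-base window, Odc1 held 4 GC boxes and Sat1 held 2, a motif found in 35.7% of 32851 RefSeq promoter windows of that length. Odc1 also held 1 cAMP response element half-site (TGACG, in 20.8% of windows), which overlapped none of the GC boxes. The E-box bound by MYC (CACGTG, 7.15% of windows), the TATA letters TATAAA (13.6%) and the NF-kB consensus, searched by name (8.46%), were not in either window. Both strands were searched, and sequence outside these windows was not. Such matches are of letters and are no measure of binding.

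The genes whose centred log2 CPM over the 4 libraries lay nearest to Odc1, among 8477 protein-coding genes with a mean of at least 10 CPM, were Osgin2, Sgk1 and Prdx5. Their Euclidean distances to Odc1 were 0.0915, 0.0974 and 0.125. Prdx5, an antioxidant peroxiredoxin, had an LPS log2 ratio of 2.64 in wild type and of 3.01 in the knockout. Sgk1, a serum- and glucocorticoid-regulated kinase, had 2.67 and 2.81, and Osgin2 had 2.63 and 2.80.

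Reads of Odc1 could be shared with its processed pseudogenes, which are intronless copies. In GENCODE M21, 42.2% of all 50-base windows of the principal Odc1 transcript also occurred in a transcript of another gene. The count tables hold 15 of these other genes, and their counts summed to 3729 and 4282 without LPS and to 18462 and 24409 with it, wild type before knockout. Nearly all of these counts lay on Gm7993, named here after its counts were seen, with 3433, 3916, 17426 and 22991 in the same order. Gm7993 counts were 31.5 to 33.0% of the Odc1 count in every library, so the pair moved together. Its 1384 bases aligned to the Odc1 transcript at 95.3% identity, with 31 mismatches over 1401 aligned columns, and 32.9% of its 50-base windows were identical to Odc1. The LPS log2 ratio of Gm7993 was 2.65 in wild type and 2.82 in the knockout. With the copies added, the ratios of Odc1 were 2.62 and 2.86 on the log2 scale. Whether the Gm7993 reads came from the pseudogene or from Odc1 cannot be told from counts. A small nucleolar RNA gene, Gm22748, lies in an intron of Odc1 with 5, 19, 94 and 94 counts, at most 0.173% of the Odc1 count.

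Of the enzymes after Odc1, Amd1 was lower with LPS and the 2 aminopropyltransferases were near their untreated levels. Amd1 (ENSMUSG00000075232, chromosome 10, 40287458 to 40302186, minus strand) had 130 and 137 CPM untreated and 78.7 and 82.8 CPM with LPS, each pair given as wild type then knockout. Amd1 was lower in each LPS library than in either untreated one, and the knockout was slightly above wild type in both conditions. Among all 11640 genes, 73.2% in wild type and 75.5% in the knockout had an LPS interval that left out no change. The log2 ratio of Amd1 was -0.72 (-0.82 to -0.62) in wild type and -0.72 (-0.82 to -0.63) in the knockout, 1.65-fold lower in each. This missed the 2-fold rule; on total counts the ratios were -1.02 and -1.03 and Amd1 was called lower in both genotypes.

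Amd1 messenger RNA carries a short upstream open reading frame known for slowing translation when polyamines are abundant. It is shown because it lies in the part of the transcript that Amd1 shares with Amd2, a second gene whose transcript aligned to it at 99.6% identity. Capitals mark the start and stop codons, and the 2 sequences from GENCODE M21 are the same, with 6 codons before the stop.
Amd1 upstream open reading frame: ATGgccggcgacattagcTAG
Amd2 upstream open reading frame: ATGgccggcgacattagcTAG

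Since 87.6% of the 50-base windows of the Amd1 transcript occurred in another gene, its counts are uncertain. Amd2 was listed with 159 and 192 counts untreated and 123 and 110 with LPS, and its log2 ratios with LPS were -0.06 (-0.41 to 0.29) and -0.54 (-0.89 to -0.19). With all 7 listed copies added, the Amd1 log2 ratios were -0.67 and -0.73.

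Srm (ENSMUSG00000006442, chromosome 4, 148591503 to 148594993, plus strand) had 298 CPM in wild type and 270 in the knockout untreated, and 303 and 305 CPM with LPS. Only the untreated knockout stood apart, below the other 3 libraries. The log2 ratio with LPS was 0.03 (-0.03 to 0.08) in wild type and 0.18 (0.12 to 0.24) in the knockout, and on total counts these became -0.27 and -0.13, of the other sign.

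Sms, on the X chromosome (ENSMUSG00000071708, 157443855 to 157492287, minus strand), had 142 and 138 CPM untreated and 167 and 178 CPM with LPS. Both LPS libraries were above both untreated ones. The log2 ratio was 0.23 (0.15 to 0.31) in wild type and 0.37 (0.29 to 0.44) in the knockout, and on total counts it was -0.07 in wild type and 0.06 in the knockout. Sms-ps, a processed pseudogene whose 1101 bases were all identical to the Sms transcript, had 828 and 941 counts untreated and 911 and 879 with LPS, or 30.6 to 35.5% of the Sms count. With copies added the Sms log2 ratios were 0.29 and 0.32. The count of Sms over that of Srm within a library was 0.477 and 0.511 untreated and 0.550 and 0.583 with LPS. This ratio needs no scaling between libraries, and its log2 change with LPS was 0.21 (0.11 to 0.30) in wild type and 0.19 (0.09 to 0.28) in the knockout.

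Sat1, whose enzyme starts the breakdown of spermidine and spermine (ENSMUSG00000025283, X chromosome, 155213132 to 155216449, minus strand), had 2156 counts in wild type and 2155 in the knockout untreated, and 4770 and 7573 with LPS. The untreated libraries were nearly equal, and the LPS-treated knockout lay above the LPS-treated wild type. The log2 ratio with LPS was 1.45 (1.38 to 1.53) in wild type, a 2.74-fold higher level, and 2.08 (2.01 to 2.15) in the knockout, a 4.23-fold higher level. Among genes called higher, Sat1 held rank 197 by LPS CPM in wild type and rank 116 in the knockout. The listed copy, Gm5552, had at most 2 counts in a library. The genes nearest to it by the same measure as for Odc1 were Mindy1, Wnt6 and Jund, at distances of 0.0596, 0.0813 and 0.117. Jund, an AP-1 transcription factor subunit, had LPS log2 ratios of 1.60 and 2.06, and Wnt6, a secreted signalling protein, 1.52 and 2.11.

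**Figure D2:**
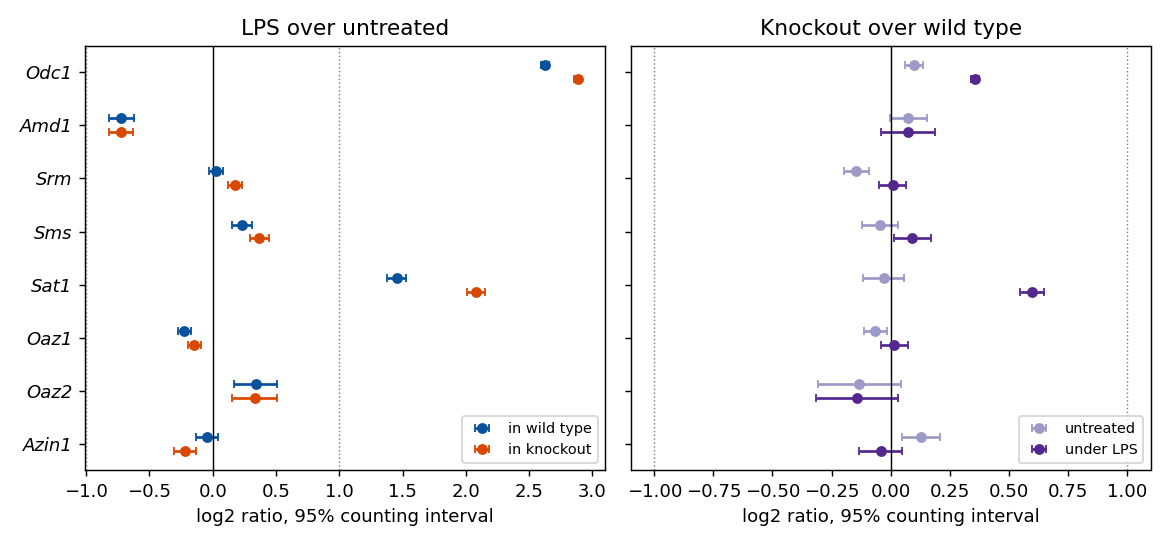
Log2 ratios of the 8 genes with 95% counting intervals, LPS over untreated in each genotype on the left and knockout over wild type in each condition on the right; dotted lines mark 2-fold. Odc1 and Sat1 lie beyond 2-fold with LPS, Amd1 is at -0.72 in both genotypes, and no gene passes 2-fold between genotypes, where Sat1 under LPS is at 0.60.

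The genes that control ornithine decarboxylase protein moved little beside Odc1 itself. Oaz1 (ENSMUSG00000035242, chromosome 10, 80826656 to 80829290, plus strand) had 372 and 356 CPM untreated and 318 and 322 CPM with LPS, in wild type and knockout. Both LPS libraries lay below both untreated ones, with a log2 ratio of -0.22 (-0.28 to -0.17) in wild type and of -0.14 (-0.20 to -0.09) in the knockout. Of the 50-base windows of the Oaz1 transcript, 53.9% also occurred in the processed pseudogene Oaz1-ps. That copy had 28 to 43 counts in a library, and with them added the Oaz1 ratios were -0.23 and -0.14. Oaz2 (ENSMUSG00000040652, chromosome 9, 65668001 to 65690300, plus strand) had 29.2 and 26.6 CPM untreated and 36.9 and 33.5 CPM with LPS. Its LPS libraries were the higher ones, with log2 ratios of 0.34 (0.17 to 0.51) and 0.33 (0.16 to 0.51), which on total counts were 0.04 and 0.02. Azin1 (ENSMUSG00000037458, chromosome 15, 38487427 to 38519266, minus strand) had 127 and 139 CPM untreated and 123 and 120 CPM with LPS. Wild type had a log2 ratio of -0.05 (-0.13 to 0.04), and the knockout -0.22 (-0.30 to -0.13).

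Antizyme is made only when ribosomes shift reading frame by a base, which polyamines promote, so its messenger RNA level is not the whole of its control. The shift sites are shown because Oaz1 and Oaz2 share them while their LPS ratios had opposite signs. Capitals mark the last codon of the opening frame and the stop codon that the shift passes, in 30 bases from GENCODE M21 transcripts.
Oaz1 frameshift site: ctcggtggtgcTCCTGAtgtccctcaccca
Oaz2 frameshift site: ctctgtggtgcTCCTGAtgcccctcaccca

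The Odc1 count over the Oaz1 count within a library, which no scaling between libraries can change, was 1.54 in wild type and 1.72 in the knockout when untreated. With LPS it was 11.1 in wild type and 14.1 in the knockout. These count ratios carry the lengths of the 2 genes, so their change between libraries is what can be read: it was 7.22-fold in wild type, a log2 change of 2.85 (2.79 to 2.91), and 8.16-fold in the knockout, a log2 change of 3.03 (2.97 to 3.09). The Azin1 count over the Oaz1 count lay between 0.342 and 0.392 in all 4 libraries. Its log2 change with LPS was 0.18 (0.08 to 0.28) in wild type and -0.07 (-0.17 to 0.02) in the knockout. The Azin1 count over the Odc1 count went from 0.223 to 0.0349 in wild type and from 0.227 to 0.0265 in the knockout. The Sat1 count over the Odc1 count went from 0.198 to 0.0879 in wild type and from 0.181 to 0.104 in the knockout, so counts of the synthetic gene gained more than those of the catabolic gene in both genotypes.

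**Figure D3:**
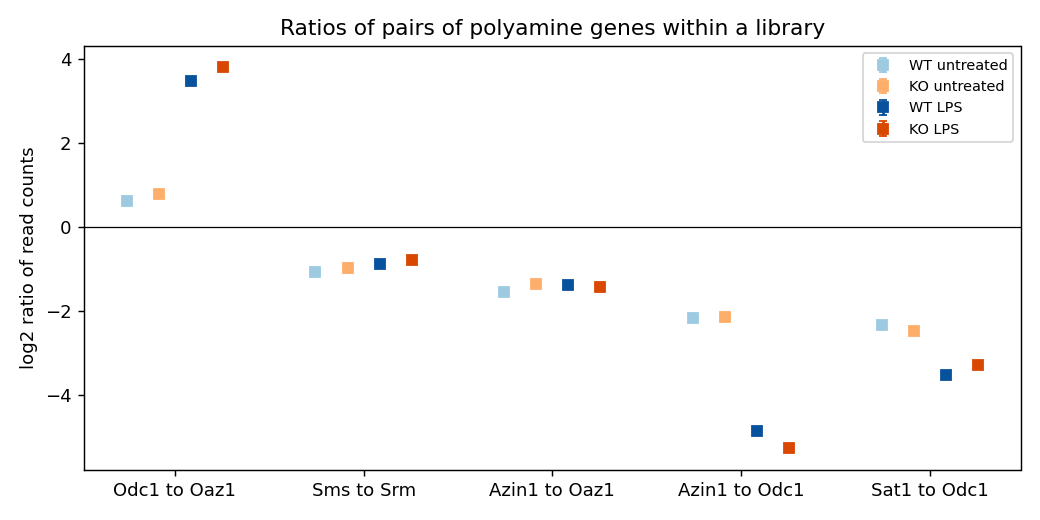
Log2 of the ratio of read counts of 2 polyamine genes within each library, with 95% counting intervals; a value of 0 is equal counts and gene length is not allowed for. Odc1 to Oaz1 goes from ratios of 1.54 and 1.72 untreated to 11.1 and 14.1 with LPS, and Azin1 to Oaz1 lies between 0.342 and 0.392.

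Per kilobase of deposited gene length, Srm (186 CPM per kilobase), Odc1 (168) and Oaz1 (145) led in untreated wild type, and Oaz2 (9.75) was last. In the untreated knockout Odc1 (180) was ahead of Srm (169). With LPS, Odc1 led at 1038 CPM per kilobase in wild type and 1329 in the knockout, and Srm followed at 190 and 191. Sat1 was next at 170 CPM per kilobase in the LPS-treated knockout, ahead of Oaz1 at 126, while in wild type Oaz1 at 124 was ahead of Sat1 at 112. Per kilobase of the principal transcript, a length chosen after seeing the data, Oaz1 led in untreated wild type at 356 CPM per kilobase, ahead of Odc1 at 259 and Srm at 223, and Odc1 led with LPS in both genotypes. With LPS, Srm was then behind Oaz1 and Sat1, at 227 CPM per kilobase in wild type and 228 in the knockout. The order of Oaz1, Odc1 and Srm untreated, and of Srm, Oaz1 and Sat1 with LPS, thus depended on the length used.

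A model with genotype and LPS as additive terms used all 4 libraries, so that each genotype served as the repeat of the other, with 1 residual degree of freedom a gene. It assumed that LPS acts alike in both genotypes on the log scale. Its p-values do not measure the spread between cultures, since each group is 1 library. By edgeR's quasi-likelihood test with Benjamini-Hochberg adjustment over 11640 genes, 5 of the 7 genes other than Odc1 passed an adjusted p of 0.05 for LPS, 3 higher and 2 lower, beside 60.3% of all genes, 30.2% higher and 30.1% lower. Sat1 had a log2 effect of 1.77 (adjusted p = 1.18e-05) and Amd1 of -0.72 (adjusted p = 5.60e-05) in edgeR, with the same sign in both genotypes. The smaller effects in edgeR were 0.30 for Sms (adjusted p = 0.00733), 0.34 for Oaz2 (adjusted p = 0.0184) and -0.18 for Oaz1 (adjusted p = 0.0420). Srm (adjusted p = 0.244) and Azin1 (adjusted p = 0.162) did not pass in edgeR. DESeq2 with the same terms passed 3 of these 7 genes, beside 42.7% of all genes, and not Oaz1 (adjusted p = 0.248) or Oaz2 (adjusted p = 0.147).

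Between genotypes none of the 8 genes reached 2-fold, untreated or with LPS, beside 2.01% of all genes called untreated and 3.49% called with LPS. The widest untreated ratios were -0.14 (-0.20 to -0.09) for Srm, -0.13 (-0.31 to 0.04) for Oaz2 and 0.13 (0.05 to 0.21) for Azin1. With LPS the widest were 0.60 (0.55 to 0.65) for Sat1, 1.51-fold higher in the knockout, and 0.36 (0.34 to 0.37) for Odc1, 1.28-fold higher. Differences of at least the size of that of Sat1 were held by 10.5% of all genes with LPS, and of at least that of Odc1 by 21.8%. The additive model called 0 of the 8 genes for genotype, beside 1.92% of all genes by edgeR's quasi-likelihood test and 1.14% by DESeq2. Odc1 was higher in the knockout in both conditions, and its genotype effect had an adjusted p of 0.227 in edgeR's quasi-likelihood test and 0.938 in DESeq2.

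The difference between the LPS ratios of the 2 genotypes was called for none of the 8 genes, beside 3.02% of all genes. It was largest for Sat1, at 0.63 (0.53 to 0.73), and 10.2% of all genes had a difference of at least that size. Odc1 followed at 0.26 (0.22 to 0.30), then Azin1 at -0.17 (-0.29 to -0.05), Srm at 0.15 (0.07 to 0.23) and Sms at 0.14 (0.03 to 0.25). With the Sms copies added, the difference for Sms was 0.03 (-0.06 to 0.13). Amd1 and Oaz2 had -0.00 (-0.14 to 0.14) and -0.01 (-0.25 to 0.23). Whether these differences exceed the spread between cultures cannot be tested with 1 library a group.

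**Figure D4:**
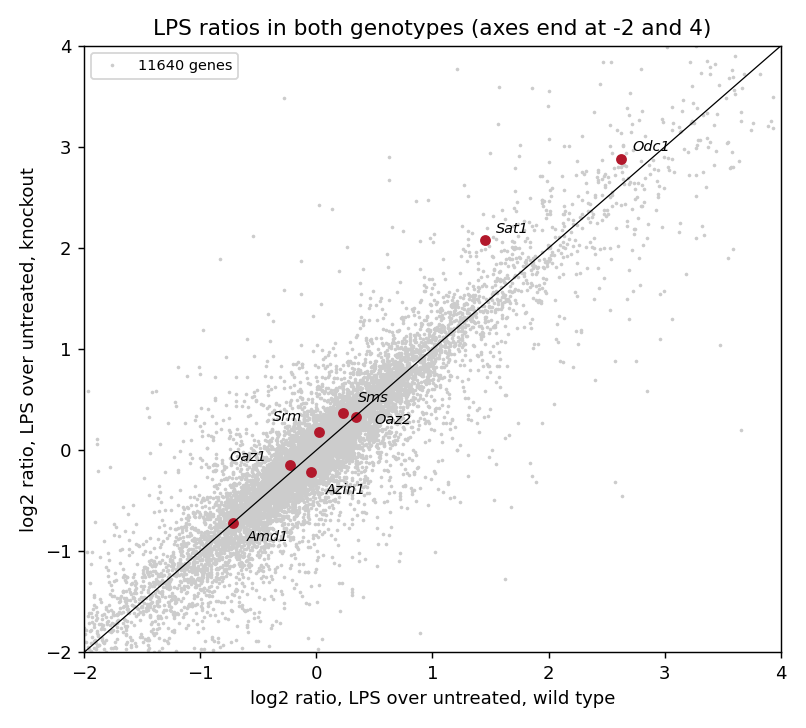
LPS log2 ratio in wild type against that in the knockout, with the 11640 genes in grey and the 8 polyamine genes in red; the line is equality, and 669 genes lie outside the axes. Sat1 (1.45 and 2.08) and Odc1 (2.63 and 2.88) lie above the line, and Amd1 (-0.72 and -0.72) lies on it.

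Around the 8 genes, the enzymes and carriers that feed and drain the pathway were mixed. Among all genes tested, LPS gave 11.2% higher and 10.1% lower calls for wild type and 11.6% and 12% for the knockout. Of 5 measured genes of degradation and related members, Smox was called higher and Paox lower by LPS in wild type, with a median log2 ratio of -0.64, and Smox alone in the knockout, with a median of 0.14. The spermine oxidase gene Smox had 44.4 and 48.0 CPM untreated and 114 and 145 CPM with LPS, and log2 ratios of 1.36 and then 1.59. Paox, which oxidizes acetylated polyamines and so acts after Sat1, had 154 and 107 counts untreated and 57 and 54 with LPS. Its log2 ratio of -1.13 was called lower in wild type, and that of -0.72 in the knockout was not. The wild-type call was lost with the whole interval beyond 2-fold and from FPKM with a pseudocount of 1 (-0.58), and on total counts the knockout was called too, at -1.03. Azin2, the other antizyme inhibitor, was called higher in the knockout with LPS, at 1.02 (0.10 to 2.02) on 15 and 32 counts, a call that was lost when the whole interval had to lie beyond 2-fold. On total counts its LPS ratio in wild type was called lower, at -1.04, as was that of Adi1, at -1.18. Of the list genes called after TMM scaling, Azin2, Paox, Arg2, Ass1, Prodh, Mxd1 and Mxd3 averaged under 10 CPM. These were not tested with that minimum, and Azin2 and Prodh were not tested from FPKM.

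Of 9 measured genes of ornithine supply, 3 were called higher with LPS in each genotype and 1 was called lower in wild type, with medians of 0.43 and 0.49. On total counts 2 were called higher and 2 lower in each genotype, and Slc7a1, at 0.80 in wild type and 0.92 in the knockout, lost its call. Of all 11640 genes, that setting called 975 higher and 1904 lower in wild type and 989 and 2156 in the knockout. Lower calls gained there were Pycr1 in wild type, at -1.01, and Slc25a15 (-1.18) and Prodh (-1.26) in the knockout. The genes called higher with TMM were Slc7a1, a cationic amino acid transporter (1.09 in wild type and 1.23 in the knockout), Arg2, the mitochondrial arginase (2.79 and 1.63), and Ass1, argininosuccinate synthase. Arg2 had 19 and 31 counts untreated and 106 and 80 with LPS, and the difference between its ratios, -1.15 (-2.08 to -0.23), was called, but not with the whole interval beyond 2-fold or from the deposited FPKM with a pseudocount of 1 (-0.68). Ass1 had 2 and 8 counts untreated and 132 and 294 with LPS, and its ratio between genotypes with LPS, 1.09 (0.79 to 1.39), was called, but again not under those settings (0.91 from FPKM). Arg1, the cytosolic arginase, had 3 or 4 counts in every library. Prodh, a proline dehydrogenase, was called lower in wild type at -1.53 and had -0.95 in the knockout. Oat, ornithine aminotransferase, and Aldh18a1, which makes the precursor of proline and ornithine from glutamate, were not called, at -0.36 and 0.51 in wild type.

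Among 12 genes of methionine and methylthioadenosine metabolism, which supply the substrate of Amd1 and recycle the by-product of Srm and Sms, none was called in wild type and Adi1 alone was called lower in the knockout, at -1.40. The medians were -0.31 and -0.37, with 2 of 12 ratios above 0 in each genotype. Of all genes tested, 49.6% were above 0 in wild type and 48.8% in the knockout. Mat2a, which makes S-adenosylmethionine, had -0.25 in wild type and -0.53 in the knockout. Of 3 measured transport genes, Slc3a2, a heavy chain of amino acid transporters linked to polyamine export, was called higher at 1.66 and 1.57, while Atp13a2 and Atp13a3, P-type ATPases that move polyamines, had -0.50 and -0.36 in wild type. None of 3 genes of hypusine formation, which uses spermidine to modify the translation factor Eif5a, was called, and Eif5a had 0.25 and 0.36.

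Odc1 is a textbook target of MYC. In the MYC network, 2 of 11 measured genes were called higher and 1 lower in wild type, and 3 higher and 1 lower in the knockout, with medians of 0.13 and 0.17. On total counts the knockout had 2 higher and 3 lower, since Mlx (0.74) lost its call and Mycn (-1.26) and Mxd3 (-1.11) gained one while Mxi1 stayed lower. Over all 11640 genes, total counts gave 989 higher and 2156 lower calls in the knockout. Myc had 7 and 4 counts untreated and 739 and 791 with LPS, so its log2 ratios of 7.03 (5.98 to 8.35) and 7.89 (6.53 to 9.77) rest on few untreated reads. Mycn, a related factor, was at 859 and 756 CPM untreated and 534 and 393 CPM with LPS, with ratios of -0.68 and -0.94. Mxd1, which pairs with MAX in place of MYC, was called higher at 1.88 and 2.18. Max itself had 0.92 and 0.94, under the 2-fold rule. Mlx had 0.93 in wild type and was called at 1.05 in the knockout. Mxd3 was called lower in wild type at -1.65, had -0.80 in the knockout, and was called higher in the knockout with LPS at 1.22, on 23 and 56 counts. Mxi1 had -0.56 in wild type and was called lower at -1.06 in the knockout. With the whole interval beyond 2-fold, the calls of Mxd3, Mxi1 and Mlx were lost, and from FPKM with a pseudocount of 1 those of Mxd3 and Mxi1.

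**Figure D5:**
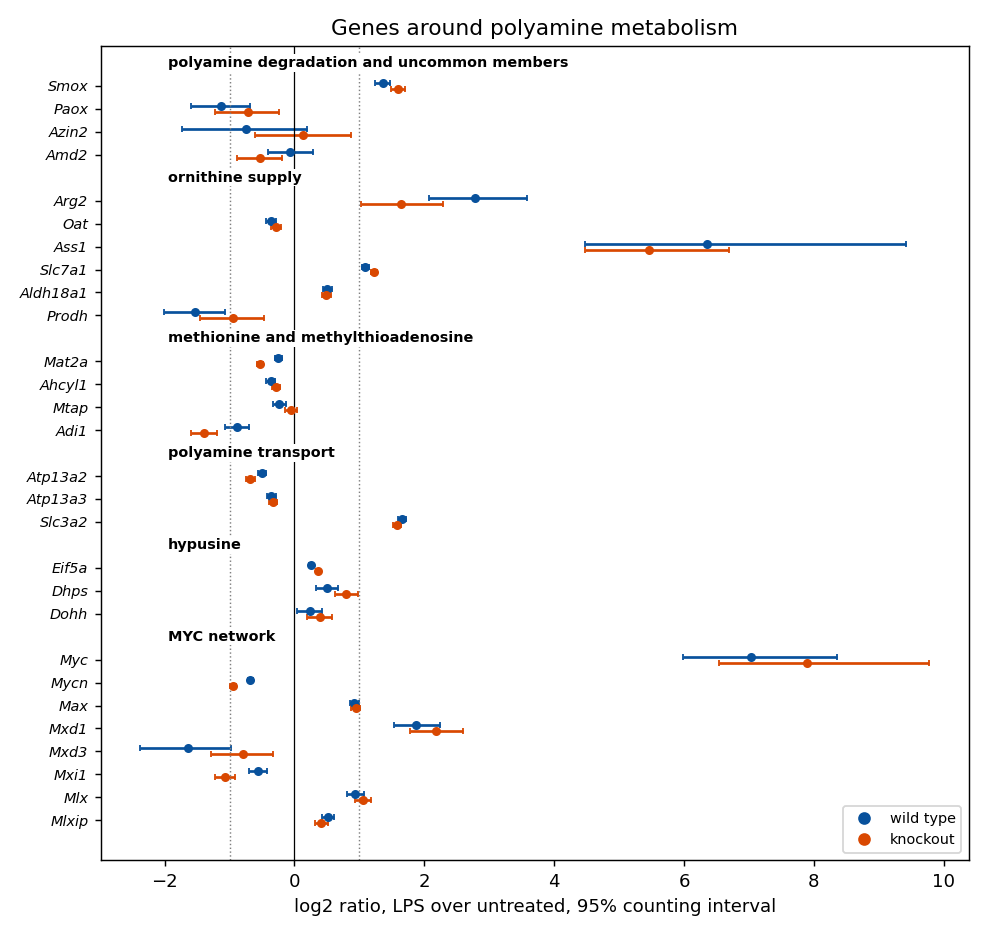
LPS log2 ratios in wild type and knockout, with 95% counting intervals, for genes around polyamine metabolism grouped by role; dotted lines mark 2-fold. Myc (7.03 and 7.89) and Ass1 (6.35 and 5.47) lie far to the right with wide intervals, Smox, Slc3a2, Slc7a1, Arg2 and Mxd1 lie beyond 2-fold in both genotypes, and the hypusine genes lie between 0.23 and 0.80.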

How the data were processed

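RNA from 4 libraries of RAW 264.7 cells was analysed. The deposited tables hold whole-number read counts per gene, not normalized, and FPKM, which the authors computed from counts and gene length with a constant per library of 0.927 to 1.16 times the total count. The submitters' processing notes list CASAVA 1.8, HISAT2 2.0.5 and featureCounts 1.5.0-p3, with GRCm38 and mm10 as builds; the use of strand in counting and the treatment of reads with several matches are not given in the sources used here.

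TMM factors, 0.899 to 1.12, were computed with edgeR 4.0.16 in R 4.3.3 over the 11640 genes that averaged 1 CPM or more. Ratios of pairs of libraries had exact conditional (Clopper-Pearson) intervals, and differences of ratios had delta-method intervals; a count of 0 entered as 3 counts. The additive model used edgeR's quasi-likelihood test, with DESeq2 1.42.0 as an alternative. Further alternatives were other scalings, filters and call rules and the deposited FPKM. The procedure was tested on simulated data.

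The 8 genes and the lists around them were chosen with earlier results of these data known. Named genes were the 8 genes, Hnrnpul1, list genes called in any comparison or among the 3 of highest mean CPM in their list, and the 3 genes nearest in pattern to Odc1 and to Sat1. Arg1 and the copies of member genes, such as Gm7993, were named outside this rule, after their values were seen. Copies were found by shared 50-base windows in GENCODE M21 transcripts, and adding them, like the principal transcript length, was chosen after seeing the data.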

Additional observations from a re-analysis of the deposited data

How the results depend on the processing

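On total counts the median log2 ratio of all genes with LPS moved to -0.30 in wild type and -0.33 in the knockout. The ratios of all 8 genes moved with them, with Odc1 at 2.33 and 2.57 and Sat1 at 1.16 and 1.77. Odc1 and Sat1 were called higher with LPS in both genotypes under every alternative run. With a 1.5-fold rule, 1 of the 8 genes was called between genotypes with LPS and 1 in the difference of LPS ratios, Sat1 in each case, and Amd1 was called lower with LPS. Of all 11640 genes, that rule called 987 between genotypes with LPS and 756 in the difference of LPS ratios. It called 2230 lower with LPS in wild type and 2448 in the knockout. Over the 8 genes, 429 of the alternative values kept their call or stayed uncalled. Effects of the additive model among them were judged by sign and adjusted p alone. Uncalled ratios, and uncalled differences of ratios, among these values stayed within the main counting interval. Called ratios were counted here however far they moved. Another 10, all uncalled, left that interval, 6 gained a call and 3 lost it. The calls lost were those of Oaz1 and Oaz2 for LPS in DESeq2 and of Oaz1 without a filter (adjusted p = 0.0819 in edgeR), and the cause was not tested.

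Counts over all genes depended on the rule. With LPS in wild type, 2489 genes were called, 1568 at a mean CPM of at least 10 and 4432 at 1.5-fold. In the knockout, 2743 were called, 1709 at a mean CPM of at least 10, 4695 at 1.5-fold and 1820 from the deposited FPKM with a pseudocount of 1. Between untreated genotypes, 234 became 567 without a filter, 43 at a mean CPM of at least 10, 569 at 1.5-fold, 48 with the whole interval beyond 2-fold and 107 from FPKM. Between genotypes with LPS, 406 became 786, 101, 987, 121 and 197 under the same settings. The difference of LPS ratios was called for 352 genes, and for 598, 62, 756 and 39 under the first 4 of those settings and 234 with protein-coding genes alone. From FPKM with a pseudocount of 1, 51.6% of those calls were higher in place of 39.2%. The additive model called 223 genes for genotype, 133 in DESeq2 and 463 without a filter.

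No paired analysis was possible because each group is 1 library and the labels carry no replicate numbers, and for the same reason no library could be left out. Oaz2, with 515 to 567 counts, had the widest intervals of the 8 genes.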
